A study of Mus musculus with 18 samples.

Results

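Semaphorin 3E, its receptor Plexin-D1 and the small GTPase RhoJ, together with 4 further GTPases, Cdc42, RhoQ, R-Ras and Arf6, were examined in endothelial and other cells of the developing mouse retina. The members were all probe sets annotated with exactly 1 gene symbol, that of Plxnd1, Sema3e, Rhoj, Cdc42, Rhoq, Rras or Arf6. This gave 12 probe sets for the 7 genes, of 36701 probe sets on the 3 chips, 29131 of which had 1 symbol. Plxnd1, Sema3e and Rras had 1 probe set each, Rhoj, Cdc42 and Rhoq had 2, and Arf6 had 3. Chip A held 8 of them, chip B 2 and chip C 2.

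All cells came from retinas of homozygous Tie2-GFP transgenic mice of the FVB/N strain at postnatal day 8, so both populations carried the same transgene. Tie2 is also expressed by some blood-derived cells, and GFP driven by its promoter therefore need not be restricted to endothelium. Pooled retinas were digested with papain and sorted into GFP-positive cells, the endothelial population, and GFP-negative cells, the control. Amplified RNA was hybridised to the Affymetrix MGU74v2 chips A, B and C, 18 arrays in all, 3 for each population on each chip. The labels do not say whether replicate arrays stem from separate pools of retinas, so the p-values measure only how these arrays vary, and that variation may be technical.

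Semaphorins are guidance proteins, and semaphorin 3E is a secreted member that binds Plexin-D1 directly, without a neuropilin. In the retina, ganglion cells are a known source of the ligand, whereas Plexin-D1 is known from sprouting endothelium, where the pair restrains and directs vessel growth. The cytoplasmic part of plexins acts on small GTPases. R-Ras and Arf6 are known to control integrin adhesion downstream of plexins, and RhoJ, a close relative of Cdc42 and RhoQ, is enriched in endothelium and regulates its motility.

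The promoter windows of the receptor gene, of the gene of its endothelial GTPase and of the ligand gene are shown because these 3 genes define the axis and had 3 different patterns in the sorted cells. Of the 7 genes, 6 had an entry in the RefSeq promoter table (build GRCm38.p6). The 250 bases before each start site are given 5′ to 3′ on the gene's own strand, and capitals mark GGAAG or its reverse complement CTTCC, the core recognised by ETS factors. The windows lie at chr6:115995006-115995255 on the minus strand for Plxnd1, at chr12:75308063-75308312 on the plus strand for Rhoj and at chr5:14025026-14025275 on the plus strand for Sema3e.
Plxnd1: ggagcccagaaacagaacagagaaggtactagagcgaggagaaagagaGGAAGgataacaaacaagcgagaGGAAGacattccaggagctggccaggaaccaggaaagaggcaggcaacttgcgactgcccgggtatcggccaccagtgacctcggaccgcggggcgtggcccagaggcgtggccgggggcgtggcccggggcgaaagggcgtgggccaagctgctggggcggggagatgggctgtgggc
Rhoj: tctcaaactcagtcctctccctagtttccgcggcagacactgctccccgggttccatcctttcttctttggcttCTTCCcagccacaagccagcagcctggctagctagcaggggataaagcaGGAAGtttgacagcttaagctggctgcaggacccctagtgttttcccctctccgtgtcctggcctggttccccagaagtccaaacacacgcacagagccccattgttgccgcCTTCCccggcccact
Sema3e: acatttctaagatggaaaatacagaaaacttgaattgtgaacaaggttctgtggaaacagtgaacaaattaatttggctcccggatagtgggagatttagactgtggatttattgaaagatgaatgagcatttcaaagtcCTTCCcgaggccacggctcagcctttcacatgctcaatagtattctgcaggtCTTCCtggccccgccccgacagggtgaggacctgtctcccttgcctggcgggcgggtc
GGAAG or CTTCC occurred 2 times in the Plxnd1 window, 3 times in that of Rhoj and 2 times in that of Sema3e. It was present in 64.1% of all 32851 promoter windows of this length, so its presence does not set these genes apart. Further sequences were searched on both strands, none of whose matches overlapped another in these windows. The GC box GGGCGG, in 32.7% of all windows, was present in those of Plxnd1 and Sema3e, and the SOX core ACAAT, in 27.7%, in those of Rhoj and Sema3e. The E-box CACGTG, in 6.02% of all windows, and the forkhead sequence GTAAACA, in 3.17%, were not found in the 3 windows.

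Before the values of the axis are read, 1 array has to be singled out. GFP-positive replicate 3 had rank correlations of 0.911 to 0.929 with the other GFP-positive arrays of its chip, while the remaining within-population pairs had 0.960 to 0.987. Calls of member probe sets that changed without it are given with both values. The sort was reflected in the endothelial and Müller glial markers. For comparison with all marker counts, 9.42% of all genes read the same way were called higher by limma and 11.2% lower. Of 10 endothelial markers 8 rose and 0 fell, and their summed intensity was 10682 to 13257 in GFP-positive and 248 to 304 in GFP-negative arrays. Tek, the gene of Tie2, had a log2 difference of 4.15 (adjusted p = 0.000592), and Pecam1 had one of -0.05 (adjusted p = 0.791). The 10 pericyte markers had sums of 310 to 401 against 358 to 421, and 0 of 10 were called by limma, with 1 at an unadjusted p under 0.05. The 12 microglial and leukocyte markers had sums of 564 to 1513 against 483 to 515, and 2 of them rose. The highest sum was on GFP-positive replicate 3, where Csf1r alone read 930, against 37.3 and 41.2 on GFP-positive replicates 1 and 2. Müller glial markers fell for 7 of 9, with sums of 551 to 1375 against 3178 to 5526, the highest GFP-positive sum on replicate 3. Glul alone read 986 there, against 136 and 156 on GFP-positive replicates 1 and 2. Between 5 and 8 Müller glial markers fell with 1 array left out. Photoreceptor markers fell for 2 of 9 (sums of 443 to 784 against 846 to 1493). Astrocyte markers fell for 2 of 6 (289 to 348 against 1161 to 1794). Amacrine and bipolar markers fell for 1 of 8 (380 to 3904 against 1449 to 2240, the highest on GFP-positive replicate 3). Pcp2 alone read 3689 on that array, against 172 and 240 on GFP-positive replicates 1 and 2. The 5 erythroid and platelet markers had sums of 264 to 303 against 225 to 239, with 0 called by limma and 3 at an unadjusted p under 0.05. On omitting GFP-positive replicate 3, 2 of these 5 rose and 1 fell, 1 pericyte marker fell and 1 leukocyte marker fell. The number of photoreceptor markers that fell was 0 on omitting GFP-positive replicate 1 or GFP-negative replicate 1 or 3, and 1 on omitting GFP-positive replicate 2. On omitting GFP-positive replicate 3, 2 amacrine and bipolar markers fell. The part of other cell types in the results was not tested. No marker of these lists was at an intensity of 0 on any array.

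Of the 12 probe sets, 4 were called higher and 2 lower in the GFP-positive population, where 7.42% and 8.86% of all probe sets were. Plexin-D1, R-Ras, 1 of 2 Cdc42 probe sets and 1 of 2 Rhoj probe sets were higher, whereas the other Cdc42 probe set and 1 of 2 Rhoq probe sets were lower. Sema3e and the 3 Arf6 probe sets did not pass the test. A probe set was called when its adjusted p in limma, fitted to log2 of intensity plus 16 over the whole chip, was under 0.05. On chip A, 3 of 8 member probe sets were higher and 1 lower, where 9.09% and 9.25% of all probe sets were. On chip B, 1 of 2 was higher and 1 lower, beside 9.6% and 11.3% of all, or 20.9% in either direction. On chip C, 0 of 2 were called by limma, beside 9.28% of all (3.4% higher and 5.88% lower), and 0 had an unadjusted p under 0.05. All arrays of 1 population lay above all arrays of the other for 7 of the 12 member probe sets, beside 37.3% of all probe sets (37% on chip A, 42.8% on chip B and 31.8% on chip C). The median difference of the 12 was 0.26, beside 0.05 over all probe sets, and 0.48 without GFP-positive replicate 1. All differences given are GFP-positive minus GFP-negative on this log2 scale, which understates the change of dim probe sets, and intensities are linear and not comparable between probe sets.

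**Figure D1:**
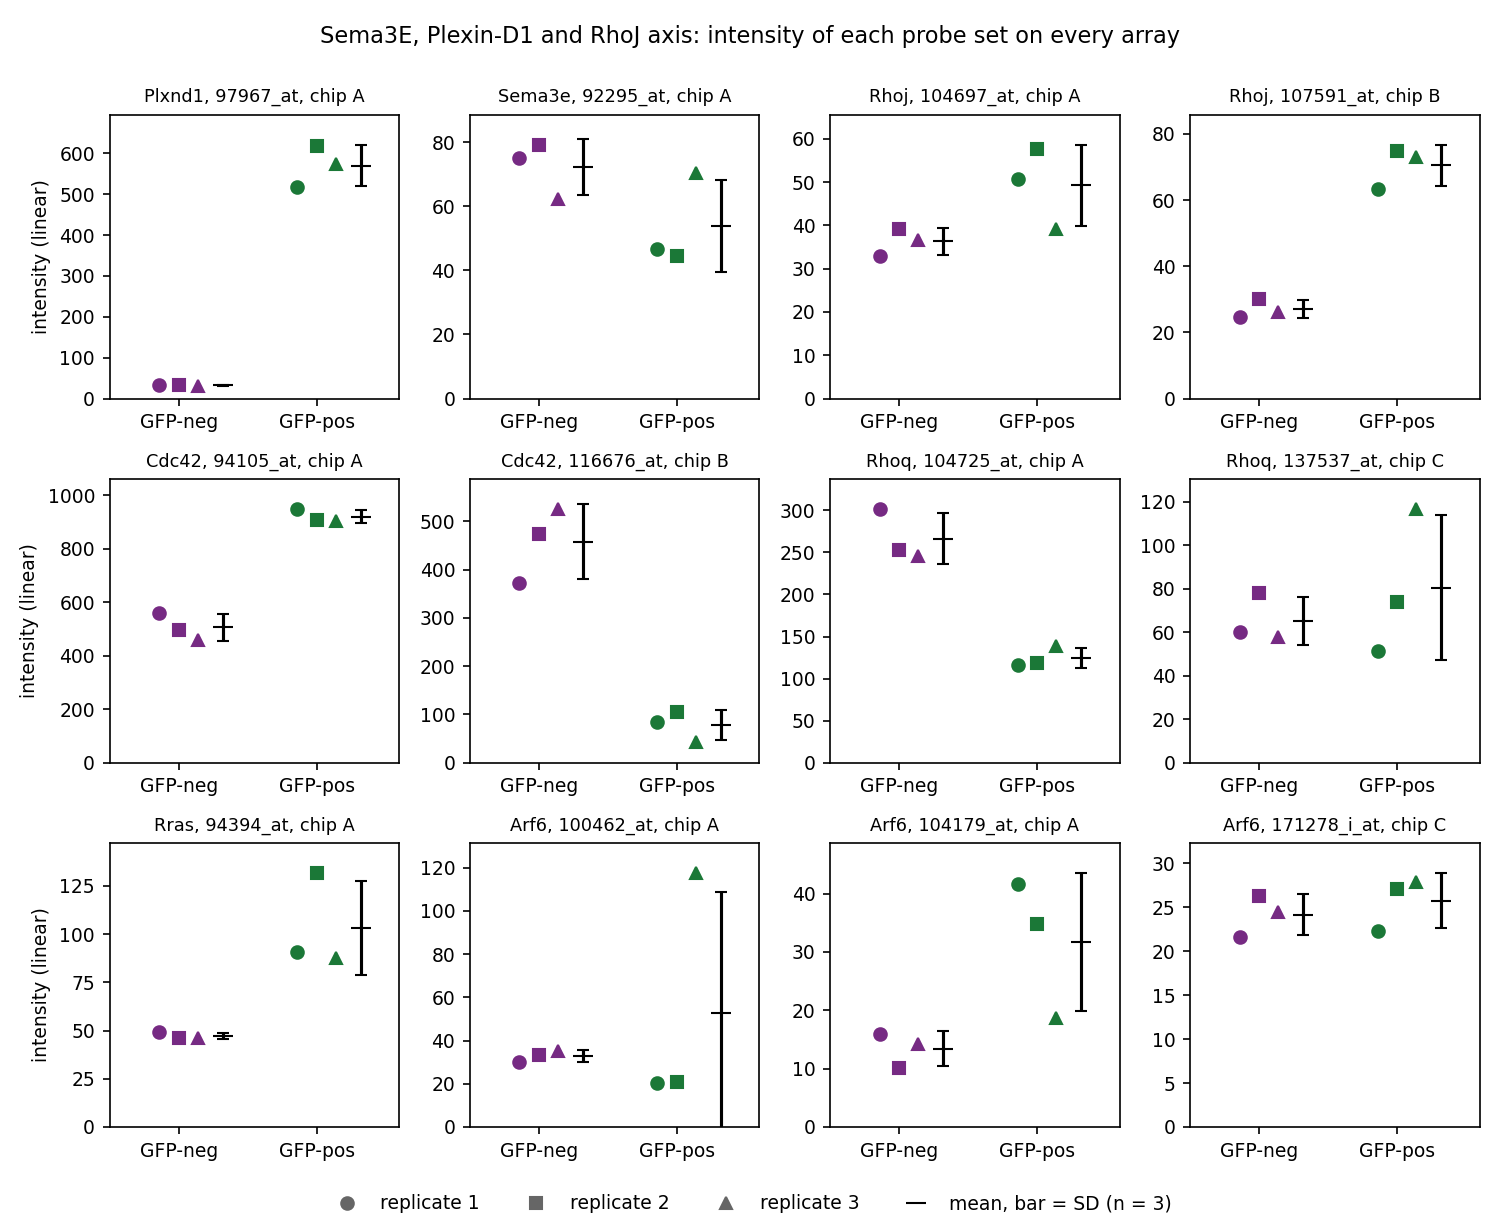
Linear intensity of the 12 probe sets on every array, by population, with replicates 1 to 3 as circles, squares and triangles and the mean with its SD (n = 3) in black; the SD bar of Arf6 probe set 100462_at runs below the axis. Plxnd1 lies between 519 and 619 on the GFP-positive and between 30.7 and 32.9 on the GFP-negative arrays, and the Cdc42 probe sets differ in opposite directions.

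The ligand gene Sema3e, read by probe set 92295_at on chip A, had intensities of 46.6, 44.6 and 70.4 on GFP-positive replicates 1, 2 and 3. On GFP-negative replicates 1, 2 and 3 it had 75.1, 79.2 and 62.4. GFP-positive replicates 1 and 2 lay below all GFP-negative arrays, while GFP-positive replicate 3 lay among them. The log2 difference was -0.35 (SE 0.16, 95% interval -0.75 to 0.05, adjusted p = 0.215). Without GFP-positive replicate 3 it was -0.51 and passed the test (SE 0.10, adjusted p = 0.0189). Its mean intensity of 72.2 ± 8.76 (SD, n = 3) in GFP-negative cells stood at percentile 67.4 of that chip's probe sets, and that of 53.9 ± 14.4 in GFP-positive cells at percentile 56.7.

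Ganglion cells are a small share of retinal cells, and their markers did not separate the populations in 1 direction. Of 11 measured ganglion cell markers 2 rose, Stmn2 and Sncg, 2 fell, Isl1 and Gap43, and 7 did not pass. Their summed intensity was 548 to 615 in GFP-positive and 464 to 526 in GFP-negative arrays. The call of Stmn2 (log2 difference 1.77) ended without GFP-negative replicate 1, 2 or 3 (adjusted p from 0.0506 to 0.0619). The number of ganglion cell markers that rose was 0 on omitting any 1 of these 3 arrays, and 1 on omitting GFP-positive replicate 2. What part the number of ganglion cells had in the Sema3e values was not tested. In these bulk samples fewer cells of a type and less RNA per cell cannot be told apart.

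The receptor gene Plxnd1, probe set 97967_at on chip A, showed the largest difference among the member probe sets. Its intensities were 519, 619 and 574 on GFP-positive replicates 1, 2 and 3, and 32.2, 32.9 and 30.7 on the GFP-negative ones. The lowest GFP-positive array was far above the highest GFP-negative one, and GFP-positive replicate 3 lay between the other arrays of its population. The ratio of mean intensities was 17.9, and the log2 difference was 3.61 (SE 0.08, 95% interval 3.40 to 3.82, adjusted p = 2.68e-05). It ranked 37 among the 12422 probe sets of chip A by difference, counted from the highest. The GFP-negative mean stood at percentile 36.3 of the chip, below the median probe set, and the GFP-positive mean at percentile 95.5. Over 16 alternative analyses the difference ranged from 2.72 to 4.11 and was called in each.

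RhoJ transcripts were higher in GFP-positive cells on 1 of 2 probe sets. On chip B, probe set 107591_at had intensities of 63.4, 74.9 and 73.1 on GFP-positive replicates 1, 2 and 3 against 24.7, 30.1 and 26.2 on the GFP-negative ones. The populations were well apart, and the log2 difference was 1.01 (SE 0.10, 95% interval 0.77 to 1.24, adjusted p = 0.000747). On chip A, probe set 104697_at had 50.8, 57.7 and 39.2 against 33.0, 39.3 and 36.6. Here GFP-positive replicate 3 fell just below the highest GFP-negative array, and the difference of 0.31 did not pass (SE 0.12, 95% interval 0.01 to 0.61, adjusted p = 0.155). Without that array it was 0.43 and passed (adjusted p = 0.0206). The 95% intervals of both Rhoj probe sets lay above 0 without overlapping each other, and the difference between them was not tested.

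Cdc42, the founding GTPase of the subfamily that includes RhoJ and RhoQ, organises filopodia and cell polarity. Its 2 probe sets gave opposite results. On chip A, probe set 94105_at had intensities of 947, 907 and 903 on GFP-positive replicates 1, 2 and 3 and of 560, 498 and 459 on the GFP-negative ones. All GFP-positive arrays lay above all GFP-negative ones, with a log2 difference of 0.85 (SE 0.09, 95% interval 0.63 to 1.07, adjusted p = 0.0019).

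On chip B, Cdc42 probe set 116676_at had intensities of 84.8, 106 and 43.6 on GFP-positive replicates 1, 2 and 3 and of 373, 475 and 525 on the GFP-negative ones. All GFP-positive arrays lay below all GFP-negative ones, by a ratio of mean intensities of 5.86 for GFP-negative over GFP-positive. The log2 difference was -2.38 (SE 0.28, 95% interval -3.04 to -1.72, adjusted p = 0.00151). It was -2.08 without GFP-positive replicate 3, the lowest array. It ranked 142 among the 12411 probe sets of chip B, counted from the most negative difference. Both Cdc42 calls held in all 16 alternatives, with differences of 0.64 to 0.92 on chip A and of -2.61 to -1.89 on chip B. Cdc42 is known to be spliced to alternative last exons, 1 of them used mainly in brain, but which transcripts each probe set matches was not given in the sources used here.

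RhoQ, also called TC10, is known for its part in vesicle trafficking and neurite outgrowth. On chip A, Rhoq probe set 104725_at had intensities of 116, 119 and 138 on GFP-positive replicates 1, 2 and 3 and of 301, 252 and 246 on the GFP-negative ones. The populations did not overlap, and the log2 difference was -1.01 (SE 0.11, 95% interval -1.27 to -0.74, adjusted p = 0.00204). On chip C, Rhoq probe set 137537_at had 51.3, 73.8 and 117 against 60.1, 77.9 and 58.0. These arrays were interleaved, with GFP-positive replicates 1 and 3 at the 2 ends of the range. The difference was 0.20 (SE 0.25, 95% interval -0.42 to 0.82, adjusted p = 0.69), and without GFP-positive replicate 3 it was -0.06.

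R-Ras is a Ras relative that promotes integrin activation and vessel stability and is a target of the GTPase-activating domain of plexins. Rras probe set 94394_at on chip A had intensities of 90.8, 131 and 87.5 on GFP-positive replicates 1, 2 and 3 and of 49.2, 46.0 and 46.3 on the GFP-negative ones. GFP-positive replicate 2 was the highest, and all GFP-positive arrays lay above all GFP-negative arrays. The log2 difference was 0.90 (SE 0.15, 95% interval 0.54 to 1.26, adjusted p = 0.00979), with a ratio of mean intensities of 2.19. It was called in all 16 alternatives, at adjusted p from 0.00164 to 0.0482.

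Arf6, a GTPase of the plasma membrane and endosomes that controls integrin recycling, had 3 probe sets, and none passed the test with all arrays. Probe set 104179_at on chip A had intensities of 41.6, 34.7 and 18.7 on GFP-positive replicates 1, 2 and 3 and of 15.9, 10.1 and 14.3 on the GFP-negative ones. The populations did not overlap, but GFP-positive replicate 3 was close to the GFP-negative arrays. The difference was 0.67 (SE 0.20, 95% interval 0.18 to 1.16, adjusted p = 0.0745). On omitting GFP-positive replicate 3 it was 0.88 and called (adjusted p = 0.00481). The GFP-negative mean stood at percentile 9.39 of the chip, among its dimmest probe sets.

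Arf6 probe set 100462_at, also on chip A, had intensities of 20.4, 20.8 and 117 on GFP-positive replicates 1, 2 and 3 and of 30.1, 33.1 and 35.4 on the GFP-negative ones. GFP-positive replicate 3 read it 5.68 times as bright as the mean of replicates 1 and 2, which lay below all GFP-negative arrays. The difference was 0.21 with all arrays (SE 0.51, 95% interval -1.05 to 1.46, adjusted p = 0.838), and -0.41 without that array (adjusted p = 0.0141). The direction for Arf6 therefore differed between these probe sets of chip A once that array was left out. Probe set 171278_i_at on chip C had 22.2, 27.1 and 27.9 against 21.6, 26.2 and 24.5. By its suffix it was among the ambiguous probe sets omitted in an alternative analysis. Its arrays overlapped (0.06, SE 0.09, 95% interval -0.15 to 0.27, adjusted p = 0.75).

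**Figure D2:**
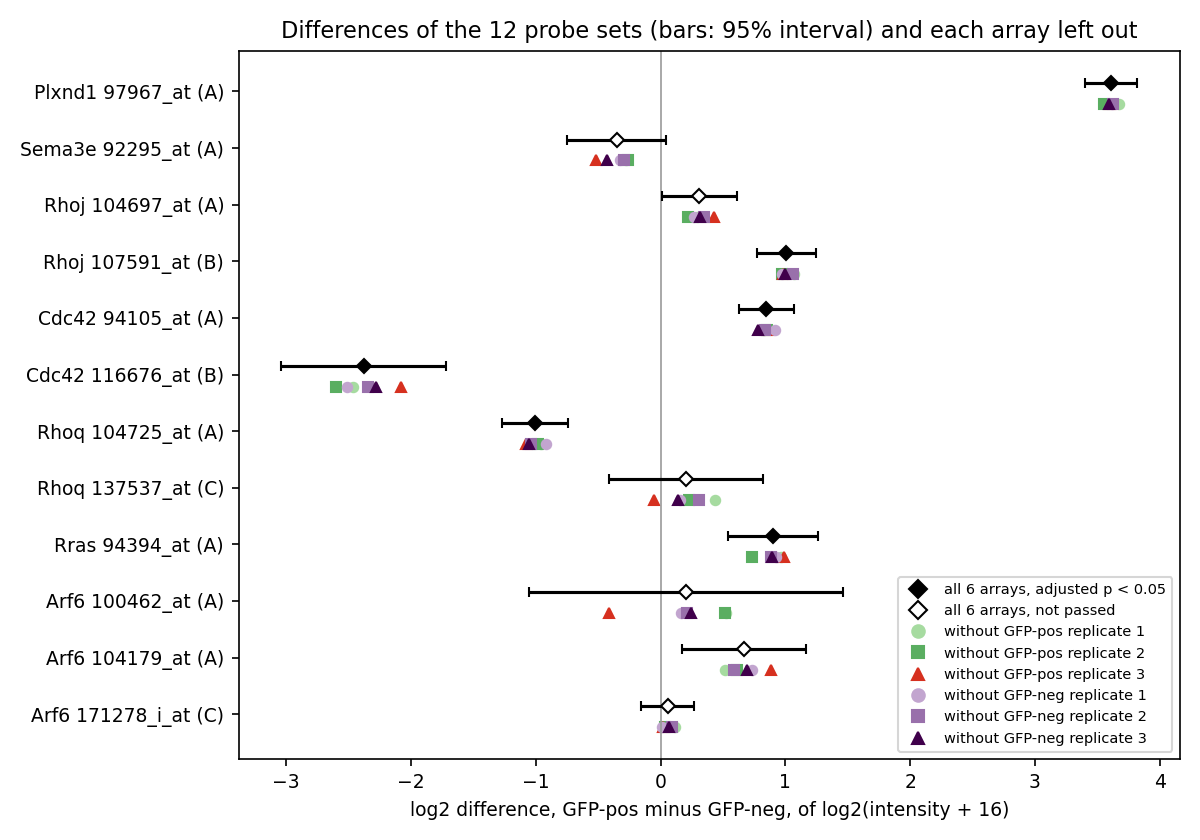
Log2 differences (GFP-positive minus GFP-negative) of the 12 probe sets with 95% intervals, filled where the adjusted p was under 0.05, and below each the difference with 1 array left out. Filled symbols keep their side of 0 in every omission, whereas Arf6 100462_at moves from 0.21 to -0.41 and Rhoq 137537_at from 0.20 to -0.06 without GFP-positive replicate 3.

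The 6 calls, 4 higher and 2 lower, were kept in each of the 6 omissions of 1 array. Without GFP-positive replicate 3 there were 6 higher and 4 lower, the added ones being Rhoj 104697_at, Arf6 104179_at, Sema3e and Arf6 100462_at. Calls over all probe sets rose as well without that array. On chips A, B and C higher calls numbered 1738, 1473 and 1559, beside 1129, 1191 and 403 with all arrays. Lower calls numbered 1731, 1657 and 1417, beside 1149, 1405 and 698. That array read Arf6 100462_at, Rhoq 137537_at and Sema3e at 5.68, 1.86 and 1.55 times the mean of GFP-positive replicates 1 and 2. It read Cdc42 116676_at and Arf6 104179_at at 0.457 and 0.491 times that mean. It read Plxnd1 at 1.01 times, Rhoj 107591_at at 1.06 times and Cdc42 94105_at at 0.974 times that mean, so the array did not stand apart for these 3.

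The probe sets closest in pattern were those whose 6 log2 values, each minus its own mean, lay nearest to the reference by root mean square distance. For Plxnd1 these were Ptgis, prostacyclin synthase, at a distance of 0.10, Cavin3, a caveolar coat protein, at 0.14, the cytokine receptor chain Il10rb at 0.14, the glycosyltransferase gene Eogt at 0.14 and Gimap4 at 0.16. Their differences ranged from 3.34 for Cavin3 to 3.83 for Il10rb. The Cavin3 probe set, like that of Mapk11 named next, can match several transcripts. For Rhoj on chip B the nearest were the scaffold gene Shank3, Rrnad1, the helicase gene Helz, Mapk11 and Srgap1, a GTPase-activating protein of the Slit and Robo pathway, at distances of 0.045 to 0.059. For Sema3e they were Ank3, Lama2, Fgd1, Sdc2 and Timm8b, at 0.033 to 0.058, none of which passed the test either. The distance was taken over 6 arrays and includes the difference between populations.

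The genes around the axis were followed in 7 lists with 107 genes, of which 101 were measured by 1 probe set each. Of these, 23 rose and 9 fell, or 22.8% and 8.91%, beside 9.42% and 11.2%, or 20.7% in either direction, of all 15964 genes read the same way. Populations did not overlap for 54 of the 101, beside 40.5% of all genes. The median difference was 0.21, beside 0.04 over all genes. Leaving out GFP-negative replicate 1 or 3 gave 15 genes that rose. Higher calls over all probe sets of chips A, B and C also decreased, from 1129, 1191 and 403. They were 693, 682 and 141 without GFP-negative replicate 1, and 638, 892 and 151 without GFP-negative replicate 3. The number of list genes that fell was 5 without GFP-negative replicate 2 or 3 and 14 without GFP-positive replicate 3.

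Among the other class 3 semaphorins, which mostly act through neuropilins and A-type plexins, 1 of 6 rose and 0 fell. This was Sema3g, a semaphorin known from endothelium, with intensities of 779, 562 and 549 on GFP-positive replicates 1, 2 and 3 against 27.6, 37.8 and 33.5. Its log2 difference was 3.71 (SE 0.16, adjusted p = 3.49e-05). That of Sema3e was -0.35. Sema3b, the brightest that did not pass, had 0.38 (adjusted p = 0.112). The list's median was 0.10, and it became 0.053 on leaving out GFP-positive replicate 3. Leaving out GFP-negative replicate 1 gave 0.063, and leaving out GFP-negative replicate 2 gave 0.15. On omitting GFP-negative replicate 1, 1 gene fell.

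Of 11 other plexins and coreceptors, 3 rose and 2 fell, with a median of 0.14. Without GFP-positive replicate 3 the median turned to -0.0030, with 3 higher and 3 lower. Nrp1, the coreceptor of semaphorin 3A and VEGF, had 1207, 1174 and 941 against 311, 166 and 131, a difference of 2.44 (SE 0.30, adjusted p = 0.00337). Nrp2 differed by 1.14 and Plxna2 by 0.24, while Plxnc1 differed by -1.82 (adjusted p = 0.00317) and Plxnb2 by -0.69. The 8 other plexins had differences of -1.82 to 0.28, beside 3.61 for Plxnd1. Kdr, the VEGF receptor gene, was the brightest that did not pass, at 0.01, and at -0.29 with quantile normalization. The call of Nrp2 ended without GFP-negative replicate 1, 2 or 3 (adjusted p from 0.059 to 0.0645). The calls of Plxna2 and Plxnb2 ended without any 1 array other than GFP-positive replicate 3, at adjusted p of 0.124 to 0.154 and of 0.0683 to 0.102.

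Of 19 intracellular partners of plexins, 4 rose and 0 fell, with a median of 0.31. Itgb1, the integrin beta 1 chain whose adhesion R-Ras and Arf6 regulate, had 2946 ± 376 against 1291 ± 196 (1.18, adjusted p = 0.00314). Fes, a tyrosine kinase that acts below plexin A receptors, differed by 1.14 and the RhoGAP gene Sh3bp1, a Plexin-D1 partner that inactivates Rac, by 0.79 (adjusted p = 0.00662). Arhgef12, a RhoA exchange factor bound by B-type plexins, did not pass at 0.92 (adjusted p = 0.0517) but was called when GFP-positive replicate 3 was omitted (1.15, adjusted p = 0.00657). Without that array 6 rose and 1 fell, with a median of 0.18. The probe sets of Itgb1 and Fes carry suffixes that mark possible matches to several transcripts.

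Of 10 other Ras and Rap GTPases 2 rose and 1 fell, with a median of 0.24. Ralb differed by 0.88 (adjusted p = 0.00141) and Rras2, the closest relative of R-Ras, by 0.87 (adjusted p = 0.00968), beside 0.90 for Rras itself. Mras differed by -0.32, a call that ended without any 1 array other than GFP-positive replicate 3 (adjusted p from 0.0606 to 0.0896). The brightest gene that did not pass was Nras at 0.32. Without GFP-positive replicate 3, 4 rose, and without GFP-positive replicate 1 the median was 0.15.

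The other Arf GTPases, regulators of coat proteins at the Golgi, comprised 5 genes, of which Arf5 rose by 0.41 and Arf4 had a difference of -1.31 (adjusted p = 0.00534), with a median of 0.11. The Arf5 call ended without GFP-positive replicate 2 or GFP-negative replicate 1 or 3 (adjusted p from 0.0665 to 0.0846). Arf1 did not pass at 0.29. The median was 0.0048 without GFP-negative replicate 1, 0.065 without GFP-positive replicate 1 and 0.24 without GFP-negative replicate 2. The Arf4 probe set can match several transcripts.

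Effectors of Cdc42, RhoJ and RhoQ rose for 8 of 28 measured genes and fell for 3, with a median of 0.17. Iqgap1, a scaffold that binds active Cdc42 and Rac, had intensities of 1411, 1346 and 1269 against 248, 226 and 217, a difference of 2.46 (SE 0.08, adjusted p = 4.0e-05). Cdc42ep3 differed by 1.34 and the kinase gene Cdc42bpb by 0.96. The 3 that fell were the polarity gene Pard6b at -2.81 (adjusted p = 0.000299), the neuronal kinase gene Pak3 at -2.49 (adjusted p = 0.000782) and Cdc42se2 at -1.48. Pak2 did not pass at 0.37, but was called on omitting GFP-positive replicate 3 (0.60, adjusted p = 0.0413). The median was 0.054 without GFP-positive replicate 3, with 7 higher and 4 lower. There were 4, 5 and 4 that rose without GFP-negative replicates 1, 2 and 3.

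Exchange factors and GTPase-activating proteins of Arf6, taken as 1 list, rose for 4 of 22 genes and fell for 2, with a median of 0.24. Git2, an Arf GTPase-activating protein that binds PAK-interacting exchange factors, differed by 1.20 (adjusted p = 0.00749), Git1 by 0.54 and Adap2 by 0.45. Asap2 differed by -0.65 and Cyth3 by -0.58. Each of these calls but that of Git2 ended in 3 or 4 of the 6 omissions of 1 array, at adjusted p of 0.0522 to 0.127. On omitting GFP-negative replicate 1 or 2, 2 genes rose. The number that fell was 1 without GFP-positive replicate 1 or 2, 4 without GFP-positive replicate 3 and 0 without GFP-negative replicate 2 or 3. The median was 0.13 without GFP-negative replicate 1. Cyth2 did not pass at 0.31, and the Git2 probe set can match several transcripts.

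**Figure D3:**
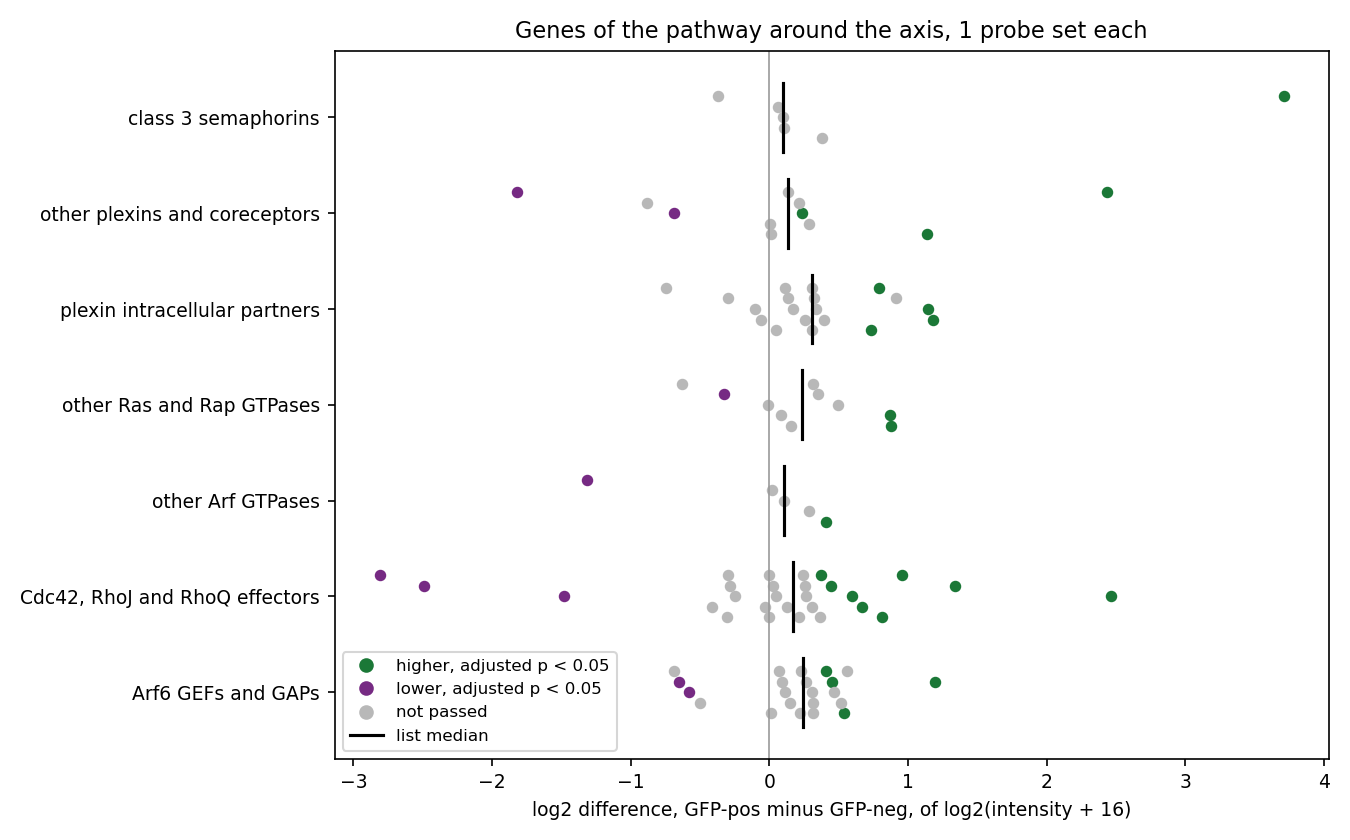
Log2 difference (GFP-positive minus GFP-negative) of each measured gene in the 7 lists around the axis, 1 point per gene, coloured by call, with the list median as a black line. Medians lie between 0.10 and 0.31 with all arrays, and between -0.0030 and 0.34 with 1 array left out, with single genes such as Sema3g at 3.71 and Pard6b at -2.81 far to either side.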

How the data were processed

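RNA of sorted retinal cells was measured on 18 single-colour arrays. The authors deposited 1 linear intensity for each probe set. Their probe summary, background correction and scaling were not given in the sources used here. They could change every difference. Array medians of a chip were close, so the deposited intensities were kept. Detection calls were not used here.

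Symbols came from the platform annotation, and 29131 of 36701 probe sets had exactly 1. Each chip was fitted alone with limma 3.58.1 in R 4.3.3 (lmFit and eBayes, two-sided) on log2 of intensity plus 16, with Benjamini-Hochberg adjustment over the chip, a threshold of 0.05 and no replicate block. The fit was tested on simulated data with 200 changed probe sets per chip. On chips A, B and C it recovered 73.9%, 79% and 77.7% of log2 changes of 1, with 14, 14 and 10 false calls. In the real data calls were more numerous, at 2278, 2596 and 1101.

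The members and gene lists were chosen with earlier results of these data known. Results of 2 further gene lists are not reported here. In the lists a gene was read by its brightest probe set on chip A, else on B, else on C. Named genes were all member probe sets, up to 3 called genes per direction and list with the largest differences, the brightest that did not pass, the 5 nearest patterns, Tek and markers. Sncg and Gap43 were added after their values were seen. Deviations of same-numbered arrays from their population means had correlations of -0.37 to 0.29 between the populations. Those of GFP-positive replicate 3 and GFP-negative replicate 2 had 0.38 to 0.45. Deviations from a mean of 3 arrays cannot settle whether numbers pair the arrays, and the labels do not say. Alternatives were quantile or median scaling, pseudocounts of 1 and 64, brighter probe sets, a variance trend, the replicate block, adjustment over the 3 chips, omission of ambiguous probe sets, each array left out and, added after seeing the data, array weights. Figures were drawn with matplotlib 3.10.9.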

Additional observations from a re-analysis of the deposited data

How the results depend on the processing

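The 4 higher and 2 lower member calls were the same probe sets in all 16 alternatives. The count of higher calls was 5 with the variance trend and 6 with array weights, and with 1 array left out it lay between 4 and 6. The count of lower calls was 3 with array weights and lay between 2 and 4 with 1 array left out. Directions turned for Rhoq 137537_at without GFP-positive replicate 3 (-0.056, up to 0.43 over omissions) and for Arf6 100462_at without that array (-0.41, up to 0.52) or with array weights (-0.31). The replicate block kept 4 higher and 2 lower member calls. In the lists it moved lower plexins and coreceptors from 2 to 1, lower Ras and Rap genes from 1 to 0, higher Arf genes from 1 to 0, higher effectors from 8 to 5, and Arf6 regulators from 4 and 2 to 2 and 1. Among markers it moved lower photoreceptor genes from 2 to 0 and higher ganglion cell genes from 2 to 1. Array weights gave 2 higher and 1 lower class 3 semaphorins, 7 and 2 plexin partners, 5 higher Ras and Rap genes and 4 lower Arf6 regulators. They gave 34 higher and 15 lower genes over the 7 lists, where all arrays weighted alike gave 23 and 9. With array weights the median was 0.084 for effectors and 0.066 for class 3 semaphorins. The median over the 7 lists was 0.21, and 0.14 with quantile normalization and 0.13 with a pseudocount of 64. That of the members was 0.26, 0.17 with a pseudocount of 64 and 0.52 over the 8 brighter probe sets. Higher plexins and coreceptors numbered 1 with a pseudocount of 64 or brighter probe sets only. Lower Ras and Rap genes numbered 0 with brighter probe sets only or the brightest probe set over the 3 chips, which gave 1 lower plexin partner. Higher Arf genes numbered 0 with the variance trend. Omission of ambiguous probe sets left 0 lower Arf genes. The cause of these changes was not tested. Over chips A, B and C, all calls numbered 1129, 1191 and 403 higher and 1149, 1405 and 698 lower, and with array weights 2155, 2299 and 2320 higher and 1842, 1916 and 1604 lower. Higher and lower calls on chip C were 187 and 454 with the block and 239 and 414 without ambiguous probe sets. With 1 array left out they ranged from 141 to 1559 and from 411 to 1417, on chip A from 638 to 1738 and from 674 to 1731, and on chip B higher calls fell to 657. With 3 arrays per population and no detection calls, dim probe sets such as those of Arf6 may lie at background.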
